A study of Drosophila melanogaster with 3 samples.

Results

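A divergent gene pair is a pair of neighbouring genes on opposite strands whose transcription start sites (TSSs) lie close together and which are read away from each other. The peaks described here were the 777 peaks of CG32006-GFP, of 2676 promoter-proximal and 11665 in all, whose summit lay within 500 bp of a TSS of such a pair of protein-coding genes. The TSSs of the pair were at most 1000 bp apart. The other 1899 promoter-proximal peaks had their summit within 500 bp of a protein-coding TSS that belonged to no such pair, and 8989 peaks lay elsewhere.

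Chromatin immunoprecipitation and sequencing (ChIP-seq) was done on whole Drosophila melanogaster prepupae of pooled sex. The animals came from 1 transgenic line with GFP fused to the C-terminus of CG32006, and an antibody against GFP was used. All 3 biological replicates belonged to this 1 group, so that no second genotype, stage or treatment could be compared. The labelled age of 48 days does not suit a prepupa, and the stage was taken from the stage label. Whole animals mix all tissues, and a site used in few cells cannot be told apart from a site used weakly in many.

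Divergent promoters are common in the compact fly genome. The stretch between both TSSs holds the promoter elements of both genes, and in flies it is often free of nucleosomes and bound by architectural proteins such as BEAF-32. Many genes arranged in this way have housekeeping roles in translation, mitochondria, DNA replication and membrane traffic. CG32006 is listed with FoxJ1 among its synonyms in the RefSeq gene table, a name from the forkhead family of DNA-binding proteins.

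The DNA under the strongest of these peaks was mostly made of A and T. The windows that extend 50 bp to each side of the summits of 7 peaks are printed because they are among the 20 strongest peaks found in all 3 replicates and their windows held no annotated exon. They are given on the plus strand of dm6, from the RefSeq Release 6 sequence. The windows are chr3L:5139447-5139547 (Tcs5/CHMP2B), chr3R:24109176-24109276 (eIF4EHP/CG18428), chr3R:15229479-15229579 (Art3/mRpS10), chr2L:13835401-13835501 (mRpS23/CenG1A), chr3R:23758154-23758254 (Hrd3/PTPMT1), chr3L:9457753-9457853 (CG3437/CG3552) and chr2L:17481089-17481189 (fws/Lamtor3). Capitals mark any of 10 short motifs searched on both strands, which are spelled out with their shares further on. In each name the minus-strand gene comes first.
Tcs5/CHMP2B: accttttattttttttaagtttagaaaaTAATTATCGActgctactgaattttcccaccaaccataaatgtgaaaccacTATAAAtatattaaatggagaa
eIF4EHP/CG18428: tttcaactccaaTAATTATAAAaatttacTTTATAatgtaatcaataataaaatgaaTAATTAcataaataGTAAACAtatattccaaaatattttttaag
Art3/mRpS10: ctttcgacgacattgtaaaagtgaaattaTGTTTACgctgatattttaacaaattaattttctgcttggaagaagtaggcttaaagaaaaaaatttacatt
mRpS23/CenG1A: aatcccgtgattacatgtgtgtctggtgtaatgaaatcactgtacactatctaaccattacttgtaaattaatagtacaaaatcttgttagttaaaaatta
Hrd3/PTPMT1: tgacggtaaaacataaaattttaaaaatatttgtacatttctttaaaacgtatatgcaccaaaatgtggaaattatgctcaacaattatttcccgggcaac
CG3437/CG3552: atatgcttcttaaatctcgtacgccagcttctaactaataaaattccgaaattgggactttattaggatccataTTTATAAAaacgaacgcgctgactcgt
fws/Lamtor3: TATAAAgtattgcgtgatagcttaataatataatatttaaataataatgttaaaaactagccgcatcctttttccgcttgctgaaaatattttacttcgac
The share of G and C (GC) in these windows ran from 13.9% at eIF4EHP/CG18428 to 35.6% at CG3437/CG3552. The forkhead letters TGTTTAC stood in 2 of the 7 windows, those of eIF4EHP/CG18428 and Art3/mRpS10. These selected windows do not give the share of the class. Over all 777 divergent promoter peaks the letters stood in 3.86% of the windows (Wilson interval 2.72 to 5.46%). The share was 2.21% at other promoter peaks and 3.18% in windows on all protein-coding TSSs. The windows of mRpS23/CenG1A and Hrd3/PTPMT1 held none of the 10 motifs.

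The strongest divergent promoter peaks of the pooled list also ranked high in every replicate. These peaks were chosen for being found in all replicates, and the pooled list was made from the same libraries. Their ranks in the replicates are therefore no independent check. Signal is the authors' value for each peak, on a scale that the files do not state, and it is compared only within a list. The highest was at Ugalt, which encodes a UDP-galactose transporter, and eIF2Bbeta, a subunit of the exchange factor for translation initiation factor eIF2 (chrX:2703636-2704151). Its signal was 9389 in the pooled list, rank 5 of 11665, and 2447, 3899 and 3084 in replicates 1, 2 and 3, where it ranked 7, 2 and 6. The summit lay 35 bp from the Ugalt TSS and 684 bp from that of eIF2Bbeta.

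The next was at PNPase, which encodes a mitochondrial exoribonuclease, and Gprk2, a kinase of G protein-coupled receptors (chr3R:31404415-31404898). Its pooled signal was 8500, and the replicates gave 2347, 3279 and 2918. The peak at Chro, the chromodomain protein Chromator, and Ssl1, a subunit of the general factor TFIIH, had a signal of 7820 and replicate values of 2211, 3080 and 2567 (chr3L:22878662-22879150). These 3 peaks stayed within the strongest 15 regions of each replicate.

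Tcs5 encodes the kinase of the tRNA-modifying KEOPS complex and CHMP2B a subunit of the membrane-remodelling ESCRT-III complex. Their shared peak had a pooled signal of 7158 and replicate values of 1849, 3117 and 2220, with the summit 102 bp and 122 bp from the TSSs. At eIF4EHP, which encodes a cap-binding translational repressor, and CG18428 the signal was 6428, with 1964, 2063 and 2441 in the replicates. Of the 20 strongest divergent promoter peaks found in all 3 replicates, whose signals ran from 9389 to 5072, 17 lay between the TSSs of a pair. All of them were among the strongest 68 regions of each replicate, except that of mRpL23 and CG9004 in replicate 3.

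**Figure D1:**
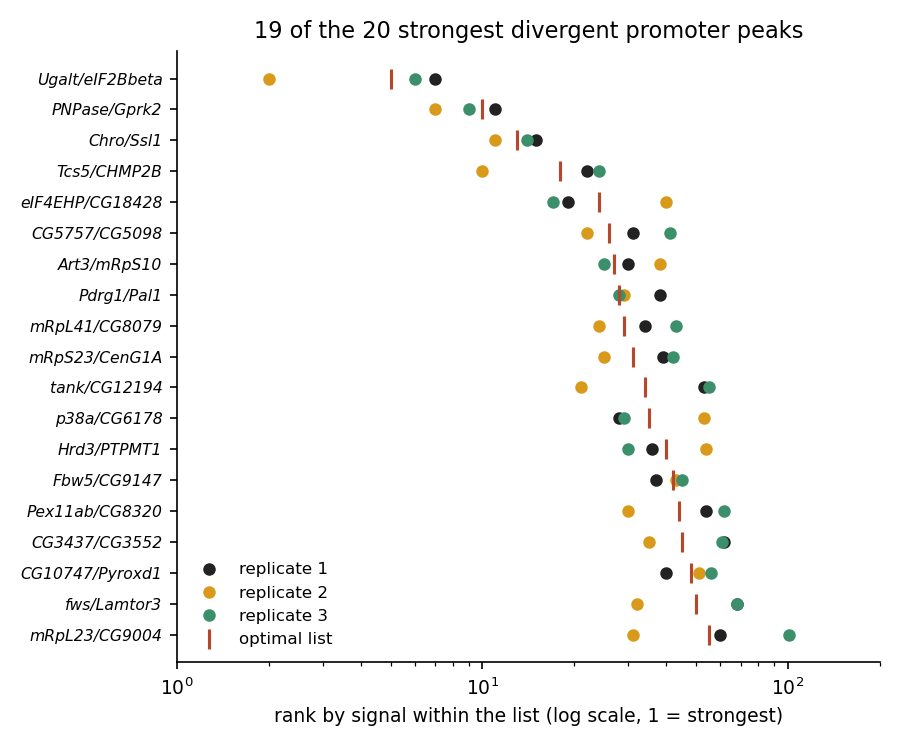
Rank by signal (horizontal log scale, 1 is the strongest) of 19 of the 20 strongest divergent promoter peaks found in all 3 replicate lists. Points are the ranks of the overlying region among the 30000 regions of each replicate, bars the rank among the 11665 pooled optimal peaks; all points but 1 lie within rank 68.

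Mitochondrial ribosomal protein genes took 4 of these 20 places. Of all 2667 divergent pairs 60 had such a gene, and 19 of the 60 had a peak. This share, 31.7% (Wilson interval 21.3 to 44.2%), was near the 27.3% of all divergent pairs. Whether 4 of 20 places is more than such genes would take by their number was not tested. The peak at Art3, an arginine methyltransferase gene, and mRpS10 had a signal of 5930 and replicate values of 1681, 2072 and 2215. The peak at mRpL41 and CG8079 had 5883 (1634, 2415 and 1876), and that at mRpS23 and CenG1A, a gene for an Arf GTPase-activating protein, had 5856 (1583, 2408 and 1904). The peak at mRpL23 and CG9004 had 5072 (1395, 2142 and 1549). Other places went to p38a, a stress-activated MAP kinase gene (5718), Hrd3, a gene of protein degradation at the endoplasmic reticulum (5537), and fws with Lamtor3 (5192), which act in the Golgi and in TOR signalling at the lysosome.

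Across all 777 peaks the pooled signal ran from 197 to 9389, with a median of 590 and quartiles of 341 and 1217. The other promoter peaks had a median of 513 and the peaks elsewhere 421. The median signal at divergent promoters was 1.15 times that at other promoters, and 1.14, 1.20 and 1.03 times in replicates 1, 2 and 3 (1.12 ± 0.0844, SD, n = 3). The medians were higher at divergent promoters in each replicate, 170 against 149, 227 against 189 and 196 against 190. An exact two-sided sign-flip permutation test over the 3 replicate lists gave p = 0.25, the smallest that 3 lists allow. Among the strongest 50% of the peaks the ratio was 1.03 and the replicates no longer shared a direction (0.995, 1.10 and 0.939, exact sign-flip permutation p = 1.00). Among these strong peaks the classes did not differ beyond the spread between replicates.

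The strongest 1166 optimal peaks held 144 of the divergent promoter peaks, 18.5% of them (Wilson 95% interval 16.0 to 21.4%). They held 17.6% (16.0 to 19.4%) of the other promoter peaks and 7.64% (7.11 to 8.21%) of the peaks elsewhere. The intervals of the 2 promoter classes overlapped, and both lay above that of the peaks elsewhere. Among the strongest 100 regions, 27 were at divergent promoters in the optimal list, and 26, 28 and 24 in replicates 1, 2 and 3. Other promoters held 34 of them in the optimal list, and 35, 34 and 38 in the replicates. Of the whole optimal list, 6.66% of the peaks were at divergent and 16.3% at other promoters.

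Of the genome's divergent pairs, a minority carried such a peak. The annotation of the 6 chromosome arms held 2667 divergent pairs, made of 5052 of 13945 protein-coding genes (36.2%), and 237 of these genes belonged to more than 1 pair. Of the pairs, 727 (27.3%, Wilson 95% interval 25.6 to 29.0%) had a peak, and 30.3%, 25.4% and 33.7% in replicates 1, 2 and 3 (29.8% ± 4.18, SD, n = 3). The same share counted over genes of divergent pairs was also 27.3% (1378 of 5052), and over all protein-coding genes it was 19.1%. Of the 8893 genes outside divergent pairs, 14.4% had a promoter-proximal peak (13.7 to 15.1%), and 15.0%, 14.0% and 15.2% in the replicates (14.7% ± 0.629). The ranges over the 3 replicates did not overlap.

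A divergent pair is searched over a longer window than a single gene and its genes often have several TSSs, so the number of summits was also set against the searched length. There were 217 summits per Mb within 500 bp of TSSs of divergent pairs and 162 per Mb around the other TSSs, a ratio of 1.34. The ratio was 1.40, 1.26 and 1.58 in replicates 1, 2 and 3 (1.41 ± 0.163), above 1 in 3 of 3 (exact sign-flip permutation p = 0.25, the smallest possible). With summits within 200 bp of a TSS it rose to 2.17.

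Of the 727 pairs with an optimal peak, 557 also had a summit in all 3 replicate lists, 133 in 2, 30 in 1 and 7 in 0. The 777 peaks were assigned to 665 pairs by the nearest TSS, and 108 of these pairs had at least 2 peaks. The most was 3. Elp6 and Dic1, genes of a tRNA-modifying Elongator subunit and a mitochondrial dicarboxylate carrier, had 3 peaks, with signals of 4548, 1706 and 1100. In 20 cases a row shared its coordinates with another row and had its own summit and signal.

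The share of pairs with a peak was also counted by chromosome arm, in the optimal list only. On 3L 34.0% of the pairs had a peak (30.0 to 38.2%), on 3R 28.7% (25.4 to 32.2%), on X 26.1% (22.0 to 30.6%), on 2L 25.7% (22.1 to 29.7%) and on 2R 21.9% (18.6 to 25.6%). The intervals of 3L and 2R did not overlap, and those of the arms between them in this order overlapped their neighbours. These intervals cover counting error over pairs only, and a difference between arms was not tested over the replicates. None of the 11 pairs of chromosome 4 had a peak, which allows a share of up to 27.3%, taken as 3 divided by the number of pairs. The Wilson upper limit there was 25.9%. The median signal of these peaks was lowest on X, 472, and highest on 2L, 699.

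The summits lay mostly between both TSSs of a pair. Of the 777 summits, 646 (83.1%, 80.3 to 85.6%) were between the minus-strand and the plus-strand TSS of some divergent pair, whereas such bases made up 31.1% of the searched windows. The share was 83.3%, 86.0% and 84.5% in replicates 1, 2 and 3 (84.6% ± 1.32), above the share of bases in 3 of 3 (exact sign-flip permutation p = 0.25). The stretch between the TSSs is upstream of both genes. Other promoter summits also lay mostly upstream of their nearest TSS, 80.2% against 74.8% at divergent promoters. The part of this upstream placement in the share between TSSs was not tested. Counting only the pair to which a peak was assigned, 566 summits (72.8%) lay between its TSSs, 102 on the side of the minus-strand gene and 109 on the side of the plus-strand gene. Both TSSs were within 500 bp of the summit in 589 cases (75.8%).

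By annotation, 438 summits (56.4%) lay outside genes, 176 (22.7%) in a 5' UTR, 145 (18.7%) in an intron and 7 in a coding exon. The peaks between their own TSSs were the stronger ones, with a median signal of 665 against 461 for the others. The ratio of these medians was 1.29, 1.29 and 1.39 in the replicates (1.32 ± 0.0568, exact sign-flip permutation p = 0.25). GC content differed with them, 31.3% against 37.0%.

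**Figure D2:**
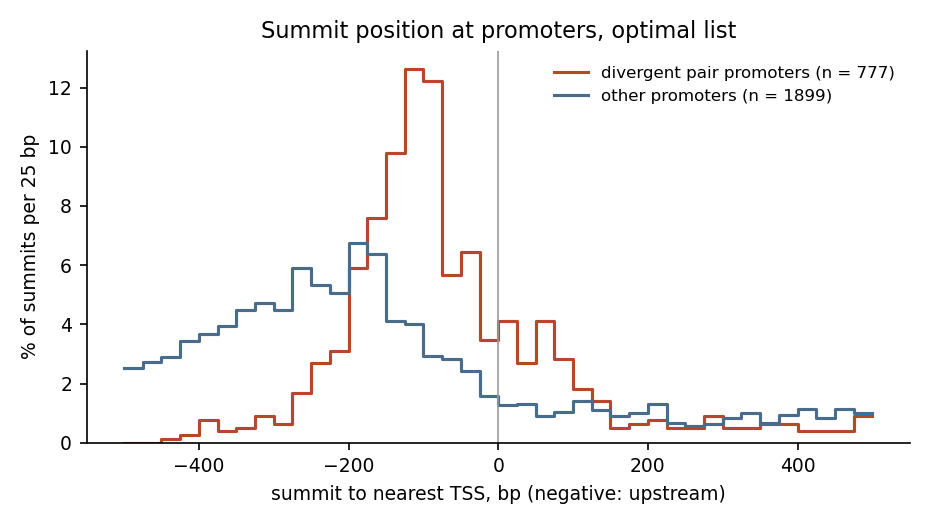
Distance from each promoter-proximal summit to the nearest protein-coding TSS, in bp with negative values upstream, as the percentage of summits per 25 bp. Summits at the 777 divergent promoter peaks gather close upstream of the TSS, with 53.8% at 50 to 200 bp upstream, while those of the 1899 other promoter peaks are spread farther out, with 27.0% there.

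At divergent promoters the nearest TSS was a median of 117 bp from the summit, and at other promoters 242 bp. The replicate medians were 116, 111 and 118 bp against 235, 231 and 240 bp, without overlap. A band from 50 to 200 bp upstream of the nearest TSS held 53.8% of the divergent promoter summits and 27.0% of the others. The replicate lists gave 53.7% ± 2.40 and 27.0% ± 0.370 (difference of 26.7 ± 2.66 percentage points, higher in 3 of 3, exact sign-flip permutation p = 0.25). Between close TSSs the distance to the nearer one is limited by the gap itself, whose median was 379 bp. Summits upstream of the nearest TSS were slightly fewer at divergent promoters, 74.8% against 80.2%, and 75.8% ± 0.669 against 79.5% ± 0.313 over the replicates (SD, n = 3, lower in 3 of 3, exact sign-flip permutation p = 0.25).

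Pairs with TSSs 201 to 400 bp apart had a peak most often. Of 942 such pairs 32.5% had one (29.6 to 35.5%), against 19.6% (17.0 to 22.5%) of 786 pairs with TSSs 1 to 200 bp apart and 28.4% (25.6 to 31.4%) of 939 pairs 401 to 1000 bp apart. The replicates gave 36.6%, 29.6% and 40.7% for the middle class and 21.9%, 19.3% and 24.3% for the closest. The difference was 13.8 ± 3.15 percentage points (SD, n = 3), the same way in 3 of 3 replicates (exact sign-flip permutation p = 0.25). The widest class lay below the middle one in each replicate, at 31.1%, 26.3% and 34.7%. These classes were drawn after finer bins had been seen. A pair was searched within 500 bp of either TSS, so the searched length grows with the gap. The part of this length in the shares was not tested.

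Histone genes were in 44 pairs, all of the closest class, and 1 of these had a peak, that of ball and His2Av, a kinase gene and a histone variant gene, with a signal of 546. No other histone pair had a region in any of the lists, the regions below the cut-off included, and whether reads from repeated copies were kept is not given in the sources used here. Without these 44 pairs the share of the closest class was 20.6%.

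**Figure D3:**
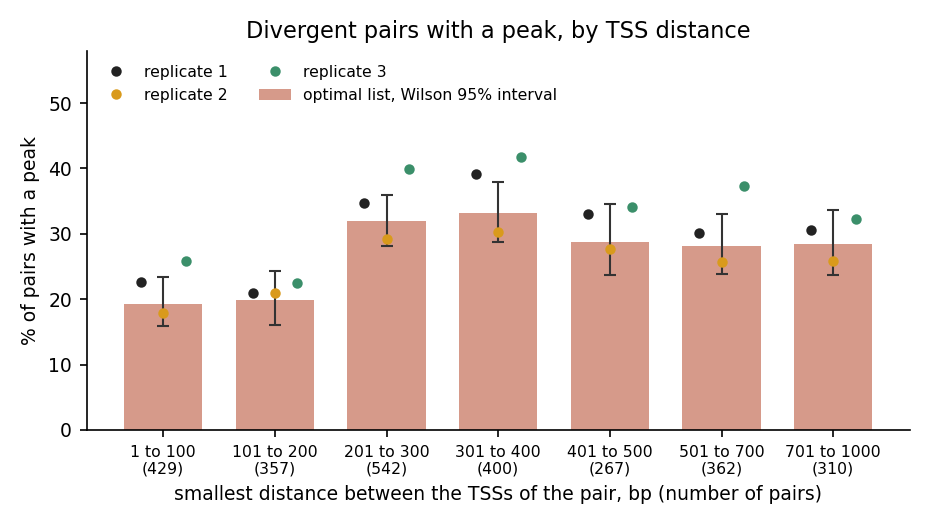
Percentage of divergent gene pairs with a peak, by the smallest distance between their TSSs in bp, with the number of pairs in brackets. Bars are the optimal list with Wilson 95% intervals and points the 3 replicate lists; the bars stand at 19.3% and 19.9% up to 200 bp, at 31.9% and 33.2% from 201 to 400 bp, and near 28% beyond.

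The signal of the peaks was not in the order of the shares of pairs with a peak. Peaks of pairs 1 to 100 bp apart, the class with the lowest share, had a median signal of 729 (102 peaks), against 568 in the next class, up to 200 bp, 798 at 201 to 300 bp and 705 at 301 to 400 bp. Past 400 bp the medians were 475, 515 and 443, for pairs 401 to 500, 501 to 700 and 701 to 1000 bp apart. The share lying between the TSSs of some pair was highest, 93.0%, at 301 to 400 bp. Where the TSSs to which a peak was assigned were 1 to 100 bp apart, the summit lay between them in 10.2% of 59 peaks, and where they were 401 to 500 bp apart in 87.5% of 96. On both sides of the limits of the rule the peaks had the following signals. Peaks at pairs with TSSs 901 to 1000 bp apart had a median signal of 462 (34 peaks), and those just past the limit, 1001 to 1100 bp apart, 413 (32 peaks). Summits 451 to 500 bp from the nearest TSS of a pair had a median signal of 425 (13 peaks), and those at 501 to 550 bp 478 (11 peaks).

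The summits were poor in G and C and lay between GC-richer flanks. Windows extending 50 bp to each side of the summits had a mean GC content of 32.9% at divergent promoters and 34.5% at other promoters, a difference of -1.64 percentage points. The 8989 summits elsewhere had 32.5%, lower than either promoter class. The replicates gave differences of -2.03, -2.16 and -2.24 points (-2.14 ± 0.103), lower at divergent promoters in 3 of 3 (exact sign-flip permutation p = 0.25). The gap widened to -5.01 points when both classes were read 50 to 200 bp upstream of the nearest TSS, 29.7% against 34.7%, and to -4.18 points with summits within 200 bp of a TSS. Windows of the same size 500 bp to each side of the divergent summits had 47.6% GC, and windows on all 19252 protein-coding TSSs 43.7%.

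**Figure D4:**
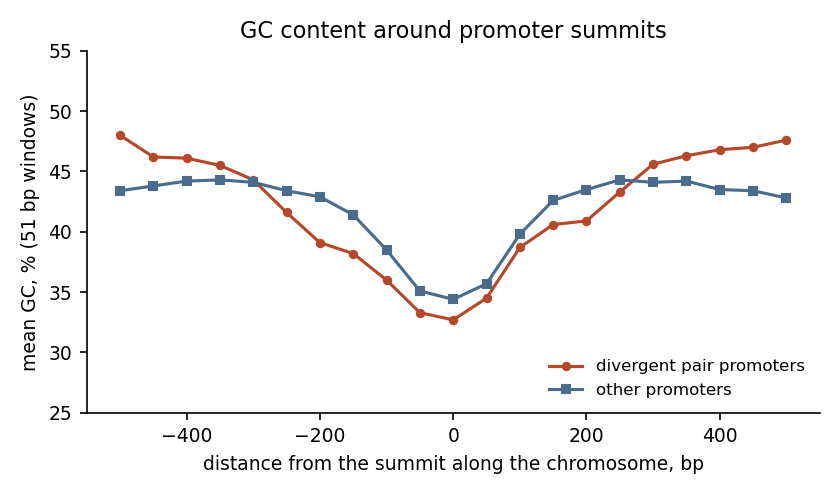
Mean GC content in 51 bp windows from 500 bp before to 500 bp after the summit, along the chromosome. Divergent promoter peaks fall from 48.0% at the left edge to 32.7% at the summit and return to 47.6%, while other promoter peaks go from 43.4% to 34.4% and 42.8%.

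Among pairs, too, those with a peak had the more AT-rich middle. The stretch 50 bp either side of the midpoint between the TSSs had 31.2% GC in pairs with a peak and 34.3% in pairs without one. The replicate lists gave differences of -3.58, -2.46 and -3.81 points (exact sign-flip permutation p = 0.25). Midpoints do not depend on where the summit fell, but the window lies nearer to the TSSs in pairs with a small gap. The median smallest gap was 319 bp in pairs with a peak and 290 bp in pairs without one. The part of the gap in this difference was not tested.

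The 10 motifs were DRE (TATCGATA, bound by Dref), BEAF-32 (TCGATA, contained in DRE), motif 1 (GGTCACAC, bound by M1BP), GAGA (GAGAG, bound by the GAGA factor), the TATA box (TATAAA), a forkhead site (TGTTTAC), an E-box (CAGCTG), a homeodomain site (TAATTA), a Zelda site (CAGGTAG) and an initiator (TCAGTT). Each was counted by its letters in windows of the same size on both strands. Such a match is not evidence of binding. Divergent promoter summits lay nearer to a TSS than other promoter summits, a median of 117 bp against 242 bp. The parts of base composition and of distance to the TSS in these shares were not tested. All motif comparisons below had an exact sign-flip permutation p of 0.25 where the 3 replicates had one direction.

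GAGA letters stood in 7.08% of divergent promoter windows and 12.8% of other promoter windows, with 6.87% ± 0.485 and 12.8% ± 0.556 over the replicates. BEAF-32 letters stood in 7.46% against 3.79%, with 8.52% ± 0.456 and 4.37% ± 0.413 over the replicates. Both differences exceeded the spread between replicates and had one direction in 3 of 3. TATA letters were in 25.4% against 20.5%, homeodomain letters in 13.0% against 10.1%, forkhead letters in 3.86% against 2.21%, and DRE letters in 1.54% against 0.527%, each with one direction in 3 of 3. Over all TSS windows the shares were 12.7% for GAGA, 13.8% for BEAF-32, 15.5% for TATA, 2.99% for homeodomain, 3.18% for forkhead and 4.48% for DRE.

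The midpoints of divergent pairs gave another contrast. BEAF-32 letters were rarer in pairs with a peak, 9.77%, than in pairs without, 16.1%, and so were DRE letters (2.48% against 5.77%) and motif 1 (1.24% against 3.40%). Homeodomain letters were more frequent in pairs with a peak, 15.1% against 9.85%, as were TATA letters (26.4% against 21.3%) and forkhead letters (4.81% against 2.99%). Each of these 6 had one direction in 3 of 3 replicates, with differences of -6.08 ± 0.702, -3.13 ± 0.336, -2.18 ± 0.244, 5.32 ± 1.10, 5.28 ± 0.814 and 1.66 ± 0.938 points in this order. BEAF-32 and DRE letters thus were more frequent at divergent than at other promoter summits, and less frequent in divergent pairs with a peak than in those without. GC content differed in the same comparisons, and pairs with and without a peak also differed in the gap between their TSSs. The parts of both in the motif shares were not tested.

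The 12 divergent promoter peaks with DRE letters had a median signal of 381, and the 765 without had 599. Those with motif 1 letters, 7 peaks, had 257, and those with BEAF-32 letters, 58 peaks, had 489 against 613 without.

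Gene roles were read against the 27.3% of all divergent pairs that had a peak. Of 838 pairs with a gene in any of the 26 lists used, 27.3% had one, and of 1829 pairs with no listed gene 27.2%. Pairs in which both genes were known only by a CG number had one in 18.5% of 379 cases. No list was tested, and the intervals below cover counting error only.

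In the protein synthesis lists, pairs with a cytoplasmic ribosomal protein gene had a peak in 25 of 56 cases, 44.6% (32.4 to 57.6%), but these peaks were of modest height. Their median signal was 462, and the strongest, RpL34b with CG8132, had 1432 (421, 584 and 431 in the replicates). RpL32 with CG7943 had 1177, and RpL23 with CG13531 had 992. Mitochondrial ribosomal protein genes had a peak at 19 of 60 pairs (31.7%, 21.3 to 44.2%) with a median signal of 843. The intervals of both groups overlapped. Translation factor genes had one at 9 of 30 pairs and tRNA synthetase genes at 8 of 26, the strongest of the latter being SerRS with CG17260 (2039).

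Among genes of mitochondria and energy, those of mitochondrial import and dynamics had a peak at 8 of 16 pairs (28.0 to 72.0%). After PNPase with Gprk2, the strongest was Lon, the matrix protease gene, with PIG-F (4447; 1312, 1641 and 1512 in the replicates). Genes of oxidative phosphorylation had one at 11 of 50 pairs (22.0%, 12.8 to 35.2%), with ND-ASHI, a complex I subunit gene, and Fum1, a fumarase gene, at 2677. Proteasome genes had one at 4 of 27 pairs (14.8%, 5.92 to 32.5%) and vacuolar ATPase genes at 2 of 14. The peak of Vha100-2 with Vti1b had a signal of 4440, with the summit on the side of Vti1b, a SNARE gene.

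Chromatin and insulator genes had a peak at 22 of 73 pairs (30.1%, 20.8 to 41.4%). The gene of the remodelling ATPase Brahma, brm, shared a peak of 3619 with Arl1, a Golgi GTPase gene (973, 1410 and 1274 in the replicates), with the summit 134 bp and 132 bp from the TSSs. Cp190, an insulator protein gene, had 3054 with CG4338, and the acetyltransferase gene Gcn5 had 2957 with ver, a telomere protection gene. General transcription genes had one at 17 of 74 pairs, with Polr3E, an RNA polymerase III subunit gene, at 3087.

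Genes of DNA replication and repair had a peak at 17 of 68 pairs, of cell cycle and mitosis at 19 of 62, of splicing at 9 of 39 and of nuclear transport at 8 of 29. PolD2, a subunit gene of DNA polymerase delta, had the highest of these, 3129 with CG13933. Only 4 pairs with a peak had both genes in one list. RPA1 and Mcm2, genes of the single-strand binding protein and the replicative helicase, shared a peak of 1376 (338, 582 and 487 in the replicates). SAK, the centriole duplication kinase gene, and Cdk12 shared 1429, and Bub3, a spindle checkpoint gene, and Cap-D2, a condensin subunit gene, shared 535. Near the small heat shock genes Hsp67Bc and Hsp22 the signal was 1433, with the summit 493 bp from the Hsp22 TSS, on the side of that gene and not between the TSSs.

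In membrane traffic and turnover, autophagy and lysosome genes had a peak at 12 of 37 pairs, with Atg2 at 2371 and Atg17 at 2093, and membrane traffic genes at 20 of 68, with alphaCOP, a COPI coat gene, at 2954. Genes for tRNA and rRNA processing had one at 15 of 46. Elp5, another Elongator subunit gene, had 3717 with CG1275.

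Genes of the ecdysone response, the hormone response that drives the prepupal stage, were in 8 divergent pairs, and 3 had a peak. Their signals lay on both sides of 590, the median of all 777 peaks. The coactivator gene tai with CG9586 had 695, and usp, the partner of the ecdysone receptor, with CG4313 had 632. The nuclear receptor gene Hr3 with Hdc had 420. The only forkhead gene in a divergent pair, FoxK with mRpL2, had 885 (260, 296 and 332 in the replicates). Cytochrome P450 genes had a peak at 0 of 10 pairs, cuticle protein genes at 0 of 9 and chemoreceptor genes at 0 of 24, which allows shares of up to 30.0%, 33.3% and 12.5%. The first 2 of these limits exceed the 27.3% of all pairs.

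Most divergent promoter peaks recurred in each replicate, as other promoter peaks did. A peak counted as found in a replicate when its summit lay inside one of that replicate's 11665 strongest regions. Of the 777 peaks, 554 were found in all 3 replicates, 171 in 2, 46 in 1 and 6 in 0. The share in all 3 was 71.3% (68.0 to 74.4%), against 72.7% (70.7 to 74.7%) of other promoter peaks and 73.6% of all optimal peaks. By replicate the shares at divergent promoters were 90.0%, 81.9% and 92.0%, and at other promoters 91.0%, 85.2% and 89.4%. The differences of -1.03, -3.35 and 2.61 points (-0.593 ± 3.00) had no common direction (exact sign-flip permutation p = 0.750). The optimal list was made from the same 3 libraries, so this recurrence is no independent check.

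Among the strong peaks, the share found in all replicates was lower at divergent promoters, with the largest difference in replicate 2. In the strongest 25% of the optimal list 90.2% of 295 were found in all 3 replicates (86.2 to 93.1%), against 95.7% of 625 other promoter peaks (93.8 to 97.0%). The single-replicate differences there were -0.735, -4.60 and -0.857 points (exact sign-flip permutation p = 0.25), a comparison added after the values had been seen. In the next 25% the shares were 74.9% and 84.7%. There replicates 1, 2 and 3 held 96.4%, 82.6% and 95.4% of the divergent promoter peaks. They held 97.6%, 90.7% and 95.9% of the other promoter peaks. In the weakest 25% the shares found in all 3 were 26.3% and 23.3%. Without replicate 2 the difference over all peaks was 1.07 points, of opposite sign to the -1.42 points with it.

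**Figure D5:**
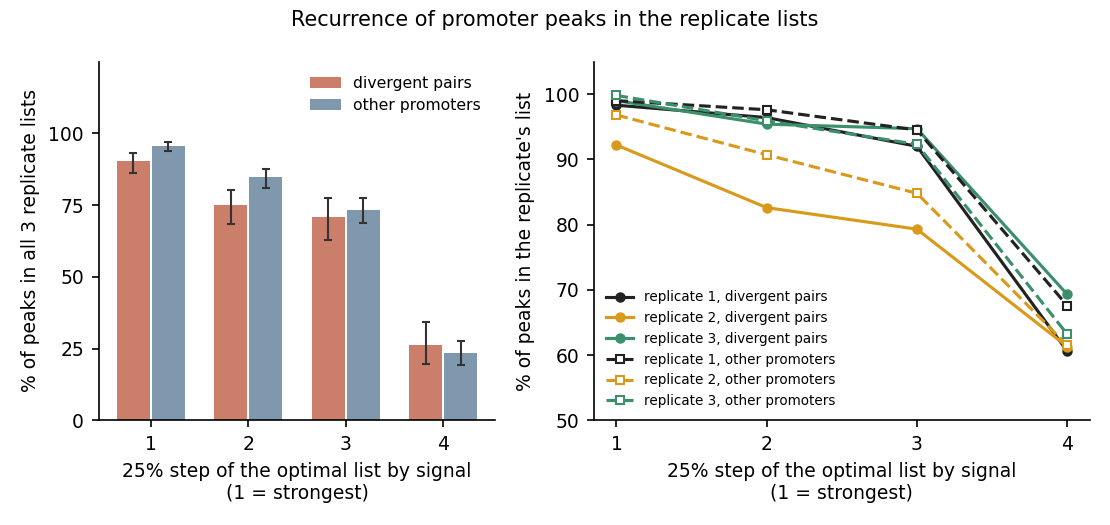
Recurrence of promoter peaks by steps of 25% of the optimal list, from the strongest (1) to the weakest (4). Left, percentage of peaks found in all 3 replicate lists with Wilson 95% intervals, 90.2% against 95.7% in the strongest step. Right, percentage found in each replicate's list, on an axis that starts at 50%. Replicate 2 lies lowest for both classes in the first 3 steps. It stands at 92.2%, 82.6% and 79.3% for divergent promoters and at 96.8%, 90.7% and 84.8% for other promoters.

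Replicate 2 alone lacked 100 divergent promoter peaks (12.9%), replicate 1 alone 39 and replicate 3 alone 32. The 100 had a median signal of 488, above the 270 and 281 of the other two sets. Of the 197 other promoter peaks that replicate 2 alone lacked (10.4%), the median was 311. Only 26 of the 100 overlapped any of the 30000 regions listed for replicate 2, against 52.3% of the 197. The strongest was at Gk1, a glycerol kinase gene, and CG13876 (chr3L:205752-206170). It had a pooled signal of 2474, 708 in replicate 1 and 950 in replicate 3, ranks 482 and 426, and no region over its summit in replicate 2. DCP2, the mRNA decapping enzyme gene, with dbo (2252), Klc, the kinesin light chain gene, with CG10984 (2134), and U2af50, a splicing factor gene, with PIG-Q (1822) followed. Replicate 2 also had the fewest regions with a −log10 q of at least 2, 9587 against 14910 and 17614, and the part of this in the missing peaks was not tested.

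The 6 peaks found in no replicate were weak. The strongest of them, at Keap1, a gene of the oxidative stress response, and kuk, had a signal of 263, and its regions ranked 15138 in replicate 1 and 14523 in replicate 3. Those at hts with CalpA and at CG8839 with ana3 had 245 and 234.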

How the data were processed

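ChIP-seq peaks of CG32006-GFP were mapped in 3 replicates of prepupae. The authors deposited 1 list of 30000 regions per replicate, a pooled list of the same length called on all 3, and the optimal list of 11665 rows, each in dm6. Peak signal and −log10 q values are those the authors deposited in narrowPeak format. For the aligner, the peak caller, the signal scale, the depth and the reproducibility cut-off, a value was not given in the sources used here. Lists in dm3 were not used. Replicate lists may share a control and so are not fully independent, and p-values describe only the spread between these lists.

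TSSs were the starts of all transcripts of protein-coding genes (Ensembl release 115, dm6 coordinates). A pair was a minus-strand TSS with a plus-strand TSS of another gene 1 to 1000 bp above it. A pair counted as having a peak when a summit lay within 500 bp of either TSS. Summits were the start plus the deposited offset, and 9 offsets past the region's end, none at these peaks, were set to its last base. Each replicate's 11665 strongest regions were compared. Intervals are Wilson intervals at 95% and cover counting error only. Where a count was 0, the share said to be allowed is 3 divided by the number of pairs. Differences were tested by exact two-sided sign-flip permutation over the 3 lists, which cannot go below p = 0.25.

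The named pairs were the 20 strongest peaks found in all replicates, up to 4 of the strongest per gene list, pairs with both genes in one list, the 3 strongest peaks found in no replicate, and the 5 pairs with most peaks. The peaks that replicate 2 lacked were chosen after their values were seen. Members, lists and tests were chosen with earlier results of these data known. Sequences are shown for 7 of the 20 strongest peaks, none on arm 2R, with no exon in the window. The values of 1 of these 20 peaks are not reported here. The functions were tested on simulated lists. Python 3.11.15, numpy 2.4.6, pandas 2.3.3 and scipy 1.17.1 were used.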

Additional observations from a re-analysis of the deposited data

How the results depend on the processing

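Alternatives were other distances to the TSS and between TSSs, outermost TSSs only, overlapping 5' ends, the strongest 50% of peaks, 1 row per coordinates, replicate regions with a −log10 q of at least 2, other overlap rules, wider windows and leaving out each replicate. Those on any overlap, the assigned pair only, histone pairs, the band 50 to 200 bp upstream and the strongest 25% were chosen after seeing the data. The ratio of median signals kept its direction in 13 of 13 alternatives (1.03 to 1.39), the density ratio in 12 of 12 (1.28 to 2.17), the share between TSSs stayed above the share of bases in 13 of 13 (64.3 to 89.6%), and the GC difference stayed negative in 14 of 14 (-5.01 to -0.630 points). The recurrence difference of -1.42 points turned positive in 4 of 16, to 2.23 points with summits within 200 bp, 0.163 with TSSs up to 500 bp apart, 0.365 with outermost TSSs only and 1.07 without replicate 2, and was lowest, -6.92, in the strongest 50%. When each replicate was left out it ran from -3.68 to 1.07 points. The share of pairs with a peak moved to 23.0% and 32.3% with summits within 200 and 1000 bp and to 19.5% in the strongest 50%. It ran from 21.5 to 23.8% when each replicate was left out, which keeps only peaks found in both others. Of 10 motif differences, that of the E-box reversed, from -0.521 to 2.61 points, in windows reaching 100 bp either side. The causes were not tested.

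The exact sign-flip test over 3 lists cannot go below p = 0.25, so the directions rest on the count of replicates that share them. The alternatives re-cut the same lists, so their counts are not independent support. Their direction was read from the optimal list only. For the median signal in the strongest 50% of peaks the replicates did not share it (0.995, 1.10 and 0.939). Depth is unknown, and the weakest peaks, 26.3% of which were found in all 3 replicates in the lowest 25% of signal, limit what the shares can show. No paired analysis was possible because there is only 1 group to pair; differences between classes of peaks were taken within each replicate list.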

Other observations

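Summits at divergent promoters leaned slightly to the plus-strand gene. Those not between the TSSs of their own pair were split nearly evenly, with 109 on the side of the plus-strand gene and 102 on the other. Of the 777 summits 424 were nearer to the TSS of the plus-strand gene and 352 to that of the minus-strand gene, 54.6% and 45.3%. The replicate lists gave 54.7%, 53.5% and 56.2% for the plus-strand gene (54.8% ± 1.37, SD, n = 3). Among peaks between their own TSSs the summit stood a median of 12.2 bp from the midpoint toward the plus-strand gene, and 13.5, 12.5 and 11.5 bp in replicates 1, 2 and 3. At other promoters the median distance was 200 bp upstream for plus-strand genes and 195 bp for minus-strand genes. Strand is a matter of how the chromosome is written, and this shift was noticed in these lists and was not tested.

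The 18335 regions that the pooled list ranks below the optimal list had another pattern at divergent pairs. Of these regions 398 had a summit within 500 bp of a TSS of a divergent pair and 1926 near another TSS. The density ratio was 0.679, against 1.34 in the optimal list. Their summits lay between TSSs in 54.3% of cases, against 83.1%, and the GC content was 40.9% at divergent and 43.6% at other promoters. The replicate lists below their strongest 11665 regions were not read in this way.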
